A study of Mus musculus with 17 samples.

Results

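A pair of tissues from one mouse RNA sequencing series is compared here, oocytes arrested at metaphase II and adult hippocampus. They are the 6 of 17 libraries in which no mother was aged or drug-treated, namely 2 libraries of young oocytes and 4 libraries of hippocampus from offspring of young mothers. Young oocytes came from wild-type, untreated CD1 females aged 4 weeks that received PMSG and then hCG at 5 IU each, and about 10 oocytes were pooled per library after the cumulus cells had been removed with hyaluronidase. Hippocampus came from wild-type, untreated adult female CD1 offspring of young mothers, aged 40 to 44 weeks, with 2 µg of RNA per library. The other 11 libraries (aged mice, or aged mice given rapamycin, and the hippocampus of their offspring) enter only where a gene set is looked up in libraries that did not choose it. Oocyte cDNA was made from polyadenylated RNA by oligo-dT priming and template switching, amplified and tagmented, whereas hippocampal mRNA was captured on poly-T beads, fragmented and made into libraries with another kit. Tissue, library kit, age and generation change together between the groups, so their parts in any difference cannot be told apart. For that reason the description rests on ranks within a tissue, genes found in one tissue and very large ratios, and small differences are given only for genes abundant in both tissues or list members that depart from their list.

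A metaphase II oocyte is transcriptionally silent: its mRNA was made during growth, is stored, and is translated or degraded in order while the cell completes meiosis and the embryo takes over. Its known stores include the zona pellucida proteins and secreted growth factors, the subcortical maternal complex, the cell cycle machinery that holds metaphase arrest, and germline forms of proteins that somatic cells encode with related genes. The hippocampus is a mixed tissue of excitatory pyramidal and granule neurons, inhibitory interneurons, astrocytes, oligodendrocytes, microglia and vessels, and its neurons carry the proteins of synaptic vesicle release and of the postsynaptic density. In bulk tissue, fewer cells of a type and less RNA per cell cannot be told apart.

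Reads assigned to genes came to 4512942 and 8334873 in the 2 oocyte libraries and 16434398 to 19462301 in the 4 hippocampus libraries. At least 10 counts were reached by 9183 and 10350 genes in oocytes and by 14389 to 14741 genes in hippocampus, out of 24491 listed. Levels of one gene are given as CPM, counts scaled to a fixed library total, and levels of different genes are compared as TPM, in which counts are first divided by exonic length. Across 15869 genes, Spearman's correlation of log2 CPM was 0.974 between the oocyte libraries, 0.966 to 0.992 among hippocampus libraries and 0.235 to 0.248 between the tissues, a description over genes that are not independent of each other. Hippocampus replicate 2 stood apart from the other 3 in glial genes, and results that rest on them are given with its value.

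Of the 15869 genes that passed the filter on low counts, 5242 were called higher in oocytes (33.0%) and 8487 lower in oocytes (53.5%) at an adjusted p of 0.05 in edgeR's quasi-likelihood test. Whether libraries of a group came from separate animals is not in the labels, so the p-values reflect only the spread between libraries, which may be technical. A fitted ratio of at least 32 with the libraries of the tissues not overlapping was reached by 1504 genes higher in oocytes (9.48%) and by 3921 genes lower in oocytes (24.7%). For genes at 0 in a tissue the fitted ratio depends on the prior count of the fit and is no bound. Of 63 tested protocadherin (Pcdh) genes, 54 counted as lower in this way. Their family median log2 fold change was -8.59, but -3.89 with group totals under 3 counts raised to 3. Such counts, here and below, thus include genes for which a 32-fold ratio is not shown. The median fitted log2 fold change of all tested genes, oocyte over hippocampus, was -1.37, and it was -2.18 when libraries were scaled by their totals alone. Scaling thus moved the median by 0.81 on the log2 scale, which is small beside the ratios described here but larger than many differences between shared genes.

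**Figure D1:**
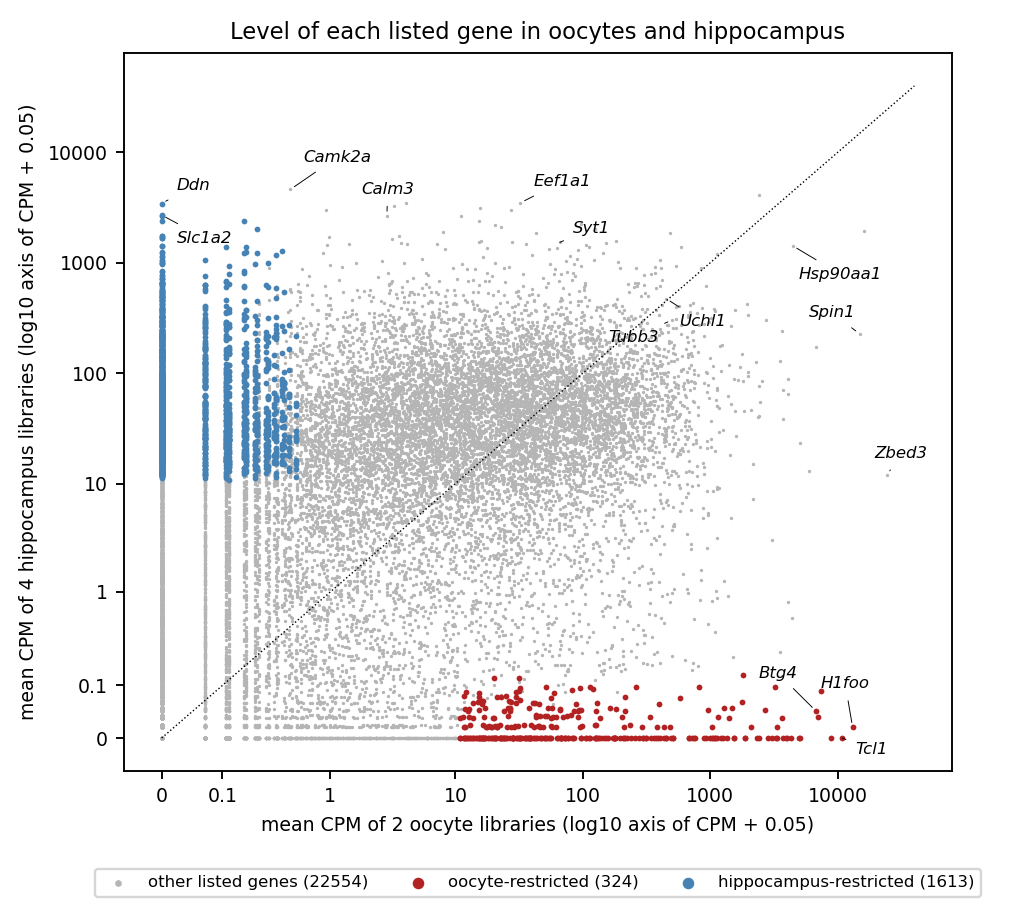
Mean CPM of each of the 24491 listed genes in the 2 oocyte libraries (x axis) and the 4 hippocampus libraries (y axis), both on a log10 axis after adding 0.05, with the 324 oocyte-restricted genes in red and the 1613 hippocampus-restricted genes in blue. Tcl1, H1foo and Btg4 lie along the bottom edge at the right, Ddn and Slc1a2 at the left edge near the top, and Hsp90aa1, Uchl1 and Tubb3 near the diagonal.

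The oocyte libraries were dominated by few genes. The 100 most counted genes held 32.6% and 33.0% of all counts in oocytes and 15.3% to 17.8% in hippocampus, with no overlap. It took 342 and 353 genes to reach 50% of the counts in oocytes, against 966 to 1096 genes in hippocampus. On the TPM scale the 100 highest genes held 45.9% of the total in oocytes, against 20.1% in hippocampus (means of 2 and 4 libraries). By TPM, 4 genes were among the 100 highest in both tissues, with Arf1, Cox8a and Hsp90aa1 among them, and 0 were among the 50 highest in both. The 100 highest oocyte genes had a median rank of 11428 in hippocampus, and the 100 highest hippocampus genes had a median rank of 5527 in oocytes, among 24064 genes with a length.

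**Figure D2:**
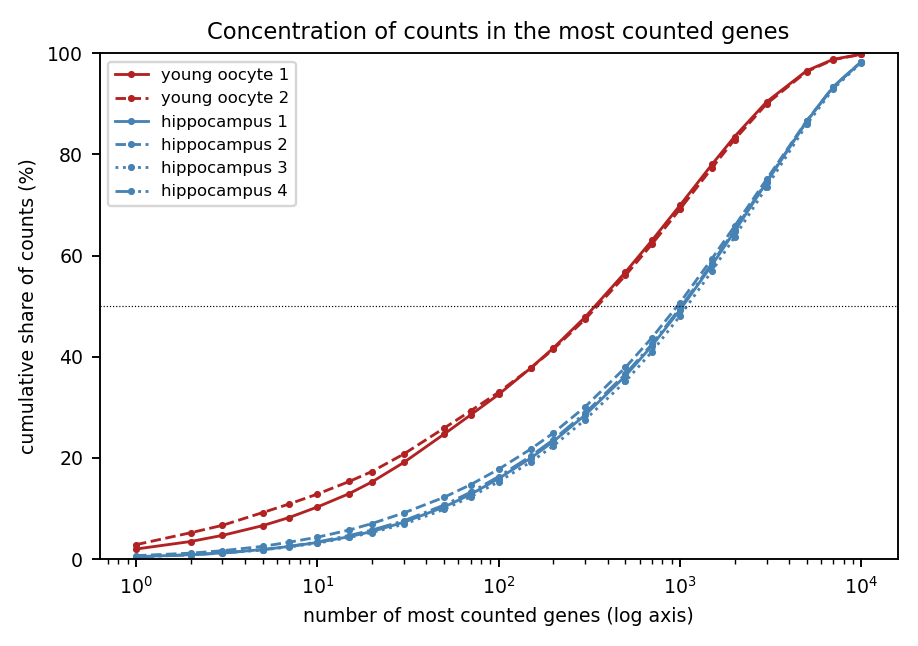
Cumulative share of counts (y axis, percent) held by the most counted genes (x axis, log scale) in the 2 oocyte libraries (red) and the 4 hippocampus libraries (blue). Both oocyte curves lie above all hippocampus curves, at 32.6% and 33.0% for 100 genes against 15.3% to 17.8%.

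By TPM the most abundant oocyte messages were those of maternal and secreted factors. Zbed3, which encodes a protein associated with the subcortical maternal complex, ranked 1 at 34762 ± 9646 TPM in oocytes (mean ± SD, n = 2), against 21.4 ± 0.800 TPM in hippocampus (n = 4). H1foo, the oocyte form of linker histone H1, ranked 2 at 34531 ± 4289 TPM. Bcl2l10, a member of the BCL2 family, ranked 3 at 23195 ± 1028 TPM, and Tcl1, a co-activator of the AKT kinase, ranked 4 at 18668 ± 1613 TPM. The next places were held by Oosp1, a secreted oocyte protein (12705 ± 2422 TPM), and E330034G19Rik (12168 ± 86.1 TPM). Gdf9, a growth factor of the TGF-beta family that acts on cumulus cells, stood at 11480.2 ± 1601 TPM. Dppa3, known to protect maternal DNA methylation in the zygote, stood at 10863 ± 2014 TPM. Spin1, a reader of modified histones required for the meiotic cycle, stood at 10434 ± 186 TPM, and Rfpl4 at 9322 ± 20.6 TPM. Of these 10 genes, 8 were oocyte-restricted in the sense given below. Zbed3 and Spin1 were the other 2, since hippocampus libraries held 11.5, 13.9, 11.4 and 11.3 CPM of Zbed3 and 251, 192, 228 and 240.3 CPM of Spin1. When the longest transcript was used for length, 8 of the 10 remained in the list, and on the CPM scale 7 did. On the CPM scale Rn45s, a ribosomal RNA precursor, came next after Zbed3. Its counts are part of the oocyte library totals and of the count shares of the most counted genes given above.

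The most abundant hippocampal messages were housekeeping, neuronal and glial. Calm2, a gene for the calcium sensor calmodulin, ranked 1 in hippocampus and had 210.1 ± 5.82 TPM in oocytes, against 6023 ± 913 TPM in hippocampus. Calm3, which encodes the same protein, ranked 7601 in oocytes at 3.78 ± 2.13 TPM and 8 in hippocampus at 4352 ± 278 TPM. Eef1a1, the translation elongation factor of most somatic cells, had 41.3 ± 0.835 TPM in oocytes, against 5541 ± 299.5 TPM in hippocampus. Cpe, a carboxypeptidase that processes neuropeptides, had 3.94 ± 1.16 TPM in oocytes and 4957 ± 319 TPM in hippocampus. Apoe and Cst3, a lipid carrier and a protease inhibitor strongly expressed by glia, had 16.5 ± 0.0394 and 8.97 ± 2.72 TPM in oocytes, against 4824 ± 2192 and 5401 ± 2078 TPM in hippocampus. The SD of both in hippocampus rested on replicate 2, in which Apoe was at 4893 CPM and Cst3 at 2998 CPM, while the other 3 libraries reached at most 2082 CPM of Apoe and 1646 CPM of Cst3. Nrgn, a postsynaptic calmodulin-binding protein, was the only hippocampus-restricted gene among the 10, with 0 counts in both oocyte libraries and 4567 ± 557 TPM in hippocampus. Rplp1, Tmsb4x and Sepw1 completed the list, with 108 ± 31.4, 8.48 ± 4.38 and 289 ± 10.8 TPM in oocytes and 5359.8 ± 1871, 4345 ± 965 and 4182 ± 815 TPM in hippocampus. By length of the longest transcript, 8 of these 10 remained, but on the CPM scale, which favours long messages, 2 did.

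A small group of messages was abundant in both tissues. The 10 genes with the highest lower mean of the 2 tissues included Cox8a, a subunit of cytochrome c oxidase, with 1473 ± 231 TPM in oocytes and 3187 ± 821 TPM in hippocampus. Hsp90aa1, a stress-inducible chaperone, had 3558 ± 673 TPM in oocytes and 1436 ± 96.3 TPM in hippocampus, and 63.8% of the 150-base windows of its longest transcript occur in no other gene. The small GTPase gene Arf1 had 1408 ± 52.8 and 1164 ± 86.7 TPM, in oocytes and in hippocampus, and the 14-3-3 gene Ywhae 1035 ± 189.7 and 1395 ± 106 TPM in the same order. Ldhb, a lactate dehydrogenase subunit, had 3124 ± 1024 TPM in oocytes and 944 ± 173 TPM in hippocampus. Uchl1, a ubiquitin hydrolase often used as a neuronal marker, had 505 and 395 CPM in the oocyte libraries, against 439, 615, 361 and 481 CPM in the hippocampus libraries, so the groups overlapped. Ywhaz, Skp1a and Timm8b were also among the 10, with means between 866 (Ywhaz) and 2799 TPM (Skp1a) in oocytes and between 647 (Timm8b) and 1167 TPM (Ywhaz) in hippocampus.

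Genes found in only one of the tissues were picked by a fixed pair of limits, at least 10 CPM in every library of one tissue and at most 3 counts in every library of the other. That gave 324 oocyte-restricted genes (1.32% of the 24491 listed) and 1613 hippocampus-restricted genes (6.59%). Because counts in the 6 libraries chose these genes, their levels and ratios in those libraries are a description and no test supports them. Oocyte-restricted genes held 16.5% to 17.5% of oocyte counts, and hippocampus-restricted genes held 19.4% to 20.6% of hippocampus counts. Of the 324, 42 exceeded 1000 CPM in oocytes, whereas 27 of the 1613 did in hippocampus. No count at all was seen in the other tissue for 183 of the oocyte-restricted and 843 of the hippocampus-restricted genes. A floor of 3 counts corresponds to 0.234 CPM over both oocyte libraries and 0.0414 CPM over the 4 hippocampus libraries, so absence is known less finely in oocytes. Just inside the limits lay 28 oocyte genes with a highest hippocampus count of 3, Gdf9 being the most abundant at 7336 CPM, and just outside lay 18 with a highest count of 4, led by Il17f at 186 CPM. On the hippocampus side 190 genes with a highest oocyte count of 3 were just inside, led by Agap2 at 1388 CPM, and 182 with a highest count of 4 were just outside. Camk2a, the alpha subunit of the calcium/calmodulin kinase of synapses, led those just outside at 4609 CPM in hippocampus.

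Among called genes with at least 10 CPM in every oocyte library and a standard symbol, the 10 of largest ratio were all at 0 counts in every hippocampus library except H1foo, which had 1 count in hippocampus. Tcl1 had 10386 and 11302 CPM in the oocyte libraries and no counts in hippocampus, at least 264907-fold higher against a floor of 3 counts over the 4 libraries. Bcl2l10 had 8804 and 9025 CPM in oocytes and was at least 215860-fold higher. H1foo had 12149.5 and 13951 CPM in oocytes, against 0, 0, 0.0516 and 0 CPM in hippocampus, a ratio of 963946 with a 95% counting interval of 173007 to 38074100. Rfpl4, which encodes a RING finger protein of oocytes, had 5146 and 4939 CPM in oocytes and was at least 120912-fold higher. The oocyte homeobox gene Obox2 had 4928 and 3729.6 CPM, the oligoadenylate synthetase gene Oas1d 3747 and 4258 CPM and the oogenesin gene Oog3 3820.3 and 3555 CPM in oocytes. Oosp1 had 4501 and 3304 CPM, Bmp15, a growth factor that pairs with Gdf9, 3881 and 2765 CPM, and Omt2b, an oocyte maturation gene, 3190.2 and 3316 CPM in oocytes. Lower bounds of the ratio of these last 6 genes ran from 76161 (Bmp15) to 100135 (Obox2). Both oocyte libraries were high for every one of the 10 genes and no hippocampus library exceeded 0.0516 CPM.

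The same rule on the hippocampus side returned 10 genes with 0 counts in both oocyte libraries. Ddn, a postsynaptic protein of dendrites, had 3318, 4119.6, 2955 and 3328 CPM in the 4 hippocampus libraries and was at least 14585-fold lower in oocytes, against 3 counts over both oocyte libraries. Slc1a2, the main glutamate transporter of astrocytes, had 2405, 2995, 2572 and 2836 CPM in hippocampus and was at least 11561-fold lower in oocytes. Hpca, the calcium sensor hippocalcin, had 2557, 2610, 2304 and 3176 CPM, and Snap25, a SNARE protein of vesicle fusion, 2289, 2427, 2214 and 2653 CPM in hippocampus. Aplp1 (amyloid precursor-like protein), Slc17a7 (the vesicular glutamate transporter VGLUT1) and Nrgn had 1756, 1747 and 1679.5 CPM on average in hippocampus. Syp (synaptophysin of vesicles), Cplx2 (complexin) and Dnm1 (dynamin of vesicle retrieval) averaged 1673, 1427 and 1417 CPM in hippocampus. Lower bounds of the ratio among the 10 ran from 6129 (Cplx2) to 14585 (Ddn), against an oocyte floor that is higher than the hippocampus floor.

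Upstream sequences of the 4 genes of largest ratio on each side that have exactly 1 entry in the RefSeq promoter table (build GRCm38.p6) are shown to give the DNA from which these messages of opposite distribution start. Each is the 250 bases before the annotated start, read 5′ to 3′ on the gene's strand, in lower case. Capitals mark E-boxes (CANNTG), TATA boxes (TATAAA) and GC boxes (GGGCGG), each searched on both strands, and a stretch of capitals can hold more than 1 motif. These motifs were present in 66.2%, 12.4% and 32.7% of the 250-base windows of all 32851 promoters in the table, so a match is common and is a description, not a site.
Tcl1 (oocyte, chr12:105222738-105222987, minus strand): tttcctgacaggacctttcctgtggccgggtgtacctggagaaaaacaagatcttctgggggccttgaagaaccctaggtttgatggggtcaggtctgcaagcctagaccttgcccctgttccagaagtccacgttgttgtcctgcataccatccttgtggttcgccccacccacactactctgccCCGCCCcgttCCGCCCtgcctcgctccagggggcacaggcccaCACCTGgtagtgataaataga
Rfpl4 (oocyte, chr7:5116912-5117161, minus strand): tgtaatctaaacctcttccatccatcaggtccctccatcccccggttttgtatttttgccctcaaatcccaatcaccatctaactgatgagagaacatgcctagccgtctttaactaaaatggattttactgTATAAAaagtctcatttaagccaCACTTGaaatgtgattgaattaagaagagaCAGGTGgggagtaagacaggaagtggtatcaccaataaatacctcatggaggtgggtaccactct
Obox2 (oocyte, chr7:15388601-15388850, plus strand): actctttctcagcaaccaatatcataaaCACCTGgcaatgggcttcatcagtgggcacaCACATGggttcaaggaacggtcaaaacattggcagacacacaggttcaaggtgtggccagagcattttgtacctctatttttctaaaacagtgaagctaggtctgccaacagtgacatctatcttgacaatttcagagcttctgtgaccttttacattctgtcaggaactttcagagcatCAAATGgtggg
Oosp1 (oocyte, chr19:11691052-11691301, minus strand): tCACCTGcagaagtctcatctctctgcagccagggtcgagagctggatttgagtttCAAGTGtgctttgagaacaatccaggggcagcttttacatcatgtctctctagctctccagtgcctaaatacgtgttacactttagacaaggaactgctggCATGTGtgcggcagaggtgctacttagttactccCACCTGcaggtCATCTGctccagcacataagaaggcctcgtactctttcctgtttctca
Slc1a2 (hippocampus, chr2:102706188-102706437, plus strand): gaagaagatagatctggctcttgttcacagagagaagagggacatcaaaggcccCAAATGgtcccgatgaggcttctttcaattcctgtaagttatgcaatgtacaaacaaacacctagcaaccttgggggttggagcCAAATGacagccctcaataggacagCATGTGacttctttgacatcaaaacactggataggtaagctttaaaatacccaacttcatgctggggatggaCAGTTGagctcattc
Aplp1 (hippocampus, chr7:30445583-30445832, minus strand): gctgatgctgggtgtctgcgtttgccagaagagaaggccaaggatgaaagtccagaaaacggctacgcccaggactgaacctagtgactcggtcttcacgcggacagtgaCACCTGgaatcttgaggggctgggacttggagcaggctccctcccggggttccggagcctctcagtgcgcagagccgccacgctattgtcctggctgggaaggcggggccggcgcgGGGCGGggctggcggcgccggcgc
Slc17a7 (hippocampus, chr7:45163671-45163920, plus strand): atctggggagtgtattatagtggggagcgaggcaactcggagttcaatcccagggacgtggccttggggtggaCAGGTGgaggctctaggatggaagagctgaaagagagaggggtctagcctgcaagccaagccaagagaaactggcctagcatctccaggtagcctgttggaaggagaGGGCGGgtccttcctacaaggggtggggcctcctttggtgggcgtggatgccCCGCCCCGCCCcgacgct
Nrgn (hippocampus, chr9:37552746-37552995, minus strand): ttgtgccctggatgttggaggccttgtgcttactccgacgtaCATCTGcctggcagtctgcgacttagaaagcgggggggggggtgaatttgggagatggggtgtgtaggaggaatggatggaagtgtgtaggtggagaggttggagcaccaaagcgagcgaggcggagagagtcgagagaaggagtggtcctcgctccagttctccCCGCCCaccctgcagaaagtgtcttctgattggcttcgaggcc
Of the 4 oocyte genes, Tcl1 held 1 E-box and 2 GC boxes, Rfpl4 2 E-boxes and 1 TATA box that begins 118 bases before the start, Obox2 3 E-boxes and Oosp1 5 E-boxes. Their observed over expected CpG ratios were 0.343, 0.191, 0.0828 and 0.266. Of the 4 hippocampus genes, Slc1a2 held 4 E-boxes, and Aplp1, Slc17a7 and Nrgn held 1 E-box each with 1, 3 and 1 GC boxes. Their CpG ratios were 0.0798, 0.752, 0.408 and 0.573, and the median of all promoters was 0.374. No comparison of promoters between the full sets is given, because a promoter was found for 258 of the 324 oocyte-restricted genes (79.6%) and 1209 of the 1613 hippocampus-restricted genes (75.0%), both under the 80% at which such a comparison is made.

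Messages for the egg coat and for secreted factors were found almost entirely in oocytes. Of 14 genes in this list, 13 were listed and tested, 12 were higher in oocytes, all with a ratio of at least 32, and 9 were oocyte-restricted. The median fitted log2 fold change was 14.26 (12.90 with group totals under 3 counts raised to 3), beside -1.37 (-1.10) over all tested genes. Summed levels were 16753 and 18359 CPM in oocytes, against 35.3 to 86.6 CPM in hippocampus. The egg coat protein gene Zp3 was at 289 and 179 CPM in the oocyte libraries and had 1 count in hippocampus. Astl, the protease ovastacin that cleaves the coat after fertilization, had 360.1 and 424 CPM in oocytes and no count in hippocampus, and Oosp3 had 2078 and 1685 CPM. The list member that was not called was Cd9, the egg tetraspanin needed for sperm fusion, with 21.3 and 14.4 CPM in oocytes, against 34.8, 86.4, 43.5 and 45.7 CPM in hippocampus (adjusted p = 0.0752), and it is named after its values were seen. Cd9 was called lower with scaling by library totals (adjusted p = 0.00391), without the filter on low counts (adjusted p = 0.0456) and without hippocampus replicate 1 (adjusted p = 0.0412).

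All 15 tested genes of the subcortical maternal complex and of other maternal-effect genes were higher in oocytes with a ratio of at least 32, and 10 were oocyte-restricted, with a median log2 fold change of 15.42 (14.17 at the floor). Together they held 4.06% and 4.77% of oocyte counts. Besides Zbed3, Bcl2l10 and Dppa3, the most abundant members were Khdc1b with 2394 and 2435 CPM, Nlrp4f with 1454 and 1121 CPM and Padi6, a deiminase-family component of the cytoplasmic lattices, with 1283 and 909.7 CPM in oocytes. Khdc1b and Padi6 had no count in hippocampus, and Nlrp4f had 3 counts there in all. Of 14 oocyte transcription factors, 11 were tested and all 11 were higher in oocytes, 9 of them oocyte-restricted. The Obox homeobox genes led by level, with Obox2 above and Obox5 at 3185 and 2195 CPM and Obox1 at 2097 and 1614 CPM in oocytes. Of the 150-base windows of the longest transcript, 68.6% of Obox1 and 67.3% of Obox2 occur in no other gene, so the split of counts between such close copies is uncertain. The folliculogenesis factors were lower, with Nobox at 72.9 and 118 CPM, Bnc1 at 71.6 and 92.0 CPM and Lhx8 at 34.6 and 43.6 CPM in oocytes. Sohlh1, Obox3 and Obox6 did not pass the filter, at no more than 2 counts in any oocyte library.

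Genes of metaphase arrest and division stood out by ratio, while few were restricted. Of 26 tested members of this list, 25 were higher in oocytes, 23 with a ratio of at least 32, and 5 were oocyte-restricted, the median log2 fold change being 9.12. Pttg1, the securin that guards sister chromatids, had 4409.8 and 4288 CPM in oocytes and 0.292, 1.16, 0.361 and 0.411 CPM in hippocampus. Ccnb1, cyclin B1 of the maturation-promoting factor, had 3813 and 3196 CPM in oocytes, against 0.351, 0.183, 0.258 and 0.206 CPM in hippocampus. Mos, the kinase at the head of the cascade that sustains metaphase II arrest, had 1567 and 1219.6 CPM in oocytes and 2 counts in all of hippocampus. Of the spindle checkpoint genes, Bub1b had 1437 and 1586 CPM in oocytes, against 0, 0.122, 0.465 and 0.308 CPM in hippocampus. Mad2l1, also of the checkpoint, had 1028 and 902 CPM in oocytes, against 4.73, 6.57, 4.13 and 5.34 CPM in hippocampus. Wee2, the oocyte kinase that restrains CDK1, had 975 and 949.9 CPM in oocytes and 3 counts in hippocampus. Cdc25b, the phosphatase that activates CDK1, was the member not called, with 5.32 and 8.28 CPM in oocytes, against 10.9, 8.70, 16.1 and 16.3 CPM in hippocampus (adjusted p = 0.82), though scaling by library totals called it lower (log2 fold change -0.91, adjusted p = 0.0337). Cdk1 itself was listed at only 4.43 and 1.80 CPM in oocytes, against 0.409, 0.426, 0.155 and 0.565 CPM in hippocampus, and it was called higher with a log2 fold change of 3.70. Both were picked after their values were seen.

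Lists for meiotic chromosomes and for mRNA storage were mixed. Of 13 tested genes for cohesin and recombination, 11 were higher in oocytes, 1 was lower and 1 was not called, with a median log2 fold change of 6.32. Sgol2a, the protector of centromeric cohesion, had 146 and 139 CPM in oocytes and 0.701, 0.487, 0.620 and 0.822 CPM in hippocampus. Sycp2, of the synaptonemal complex, had 128 and 138 CPM in oocytes, against 0.409, 1.03, 3.05 and 1.80 CPM in hippocampus. Msh4, of meiotic crossovers, had 93.3 and 96.8 CPM in oocytes, and Hormad1, of chromosome axes, 41.0 and 70.1 CPM. Smc1b, the meiotic SMC1 of cohesin, had 41.9 and 39.0 CPM in oocytes. Rec8, the meiotic kleisin of cohesin, was listed at 0 in both oocyte libraries and had at most 1 count per hippocampus library. Mlh3, of crossover resolution, was the member that was lower, with 0.222 and 0.600 CPM in oocytes, against 35.5, 24.2, 36.4 and 30.0 CPM in hippocampus. Of 19 tested genes for storage and turnover of maternal mRNA, 15 were higher in oocytes, 3 were lower and 1 was not called, with a median log2 fold change of 4.22. Btg4, the adaptor that brings the deadenylase to maternal mRNA, had 7249 and 6146 CPM in oocytes and 3 counts in hippocampus. Its partner Cnot7, a catalytic subunit of the CCR4-NOT deadenylase, had 2131 and 1846 CPM in oocytes and 87.1, 105, 88.8 and 95.7 CPM in hippocampus. Dazl, a translational activator of germ cells, had 1586 and 1343 CPM in oocytes, against 3.62, 6.88, 4.29 and 4.83 CPM in hippocampus, and Zar1, which binds stored maternal mRNA, 1161 and 1024 CPM and no count in hippocampus. The 3 lower members were Ddx6, a helicase of mRNA storage granules, Tob1 and Zfp36l2, and oocytes held 12.2 and 9.36 CPM of Ddx6, against 186, 171, 189 and 190.1 CPM in hippocampus. Mlh3, Ddx6, Tob1 and Zfp36l2 are named after their values were seen.

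**Figure D3:**
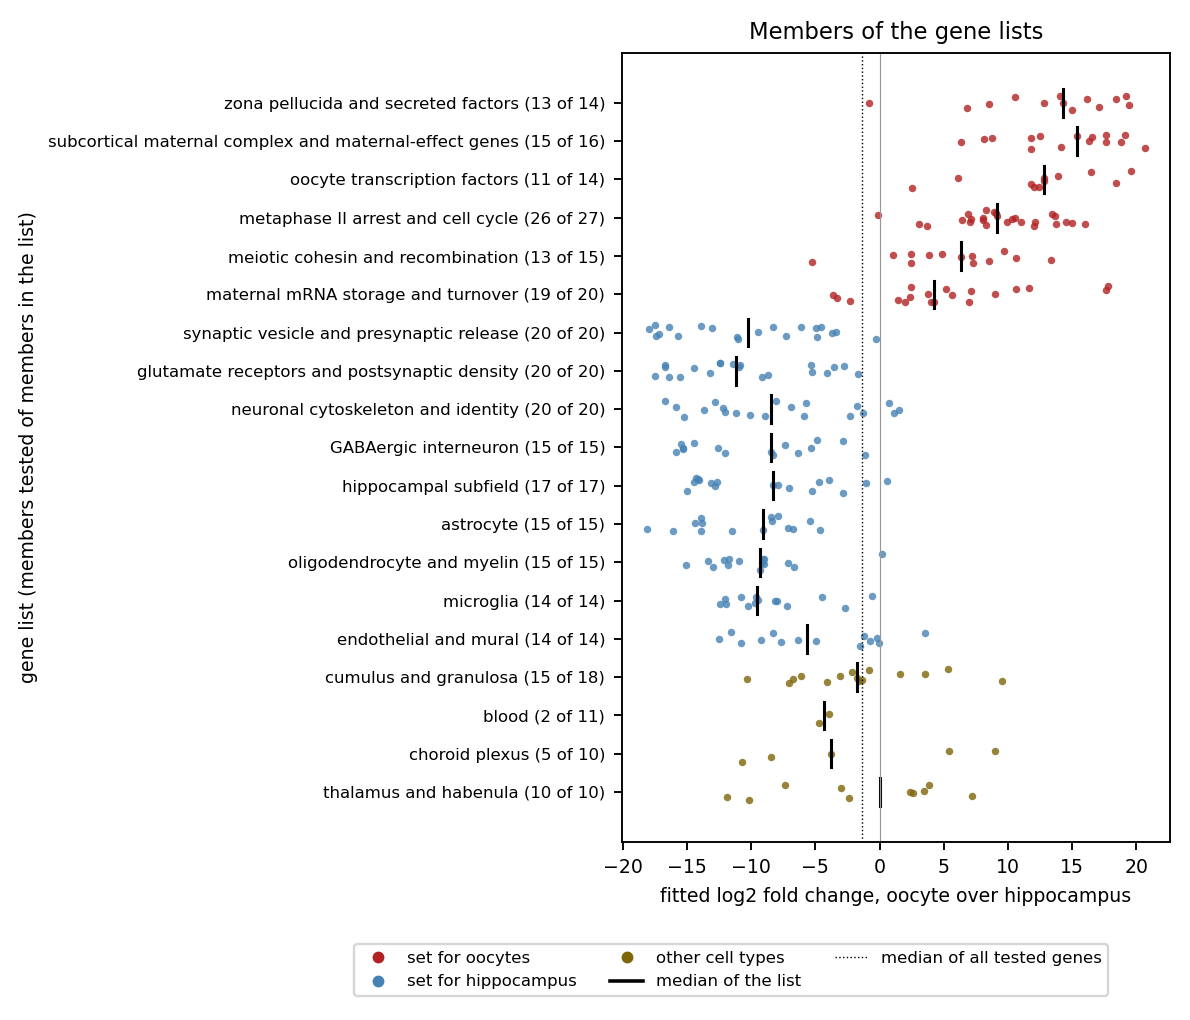
Fitted log2 fold change, oocyte over hippocampus (x axis), of each tested member of the gene lists (rows; points jittered vertically), with the median of each list as a bar and the median of all 15869 tested genes (-1.37) as a dotted line. Medians of the 6 lists set for oocytes lie between 4.22 and 15.42, and medians of the 9 lists set for hippocampus between -11.16 and -5.63. Values of genes at 0 in one tissue depend on the prior count of the fit and are no bounds.

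Several oocyte-restricted genes belong to families that have expanded in the mouse and sit side by side in the genome. All 6 listed Tcl1 genes were oocyte-restricted, as were all 3 Oosp genes, 4 of 6 Obox genes, 3 of 4 Oog genes, 12 of 18 Nlrp genes and 2 of 4 Khdc genes. Among symbol stems added after the values were seen, both Omt2 genes, 12 of 22 Fbxw genes and 3 of 8 Oas1 genes were oocyte-restricted. None of the members of these 9 families was hippocampus-restricted. Pramel, a stem set beforehand like Tcl1 and Nlrp, had 0 of 6 genes restricted to oocytes. Of these 6 genes, 0 passed the filter, and their summed level was at most 0.240 CPM in an oocyte library. The background is 1.32% of listed genes oocyte-restricted, and larger families had 4 of 369 Zfp genes, 4 of 69 Trim genes, 1 of 112 Krt genes and 1 of 1107 Olfr genes. Symbols with -ps or -rs were left out of the families, and 1 such Olfr symbol, Olfr1300-ps1, was also oocyte-restricted. Runs of at least 5 oocyte-restricted genes with gaps of at most 100 kb were found at 2 places (GENCODE M21, GRCm38). One, at chr12:105146014-105222793, held Tcl1 and its Tcl1b paralogues, with all 6 listed genes of that span restricted and a summed level of 14609 and 15187 CPM in oocytes. Within it Tcl1 came first by TPM at 18668 ± 1613, followed by Tcl1b1 at 4672 ± 338, Tcl1b2 at 2595 ± 35.3 and Tcl1b3 at 2063 ± 29.6 in oocytes. The other, at chr9:109139447-109495875, held 8 F-box genes (Fbxw13, Fbxw14, Fbxw16, Fbxw19, Fbxw20, Fbxw21, Fbxw22 and Fbxw28), again all listed genes of the span, with 4636 and 5618 CPM in oocytes as a sum. Fbxw14 had 1479 and 1236 CPM and Fbxw28 896 and 971 CPM in the oocyte libraries, with no count in hippocampus, and 69.8% of Fbxw14 and 64.0% of Fbxw28 windows were unique. In hippocampus 19 such runs held 108 restricted genes, but in 0 of them were all genes listed in the span restricted. One of these, with 9 restricted of 24 listed genes, lay at chr11:97415533-98053462 and held genes of different families.

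Nlrp14, whose loss arrests mouse embryos early, had 1512 and 1552 CPM, Nlrp4a 1112 and 957 CPM and Nlrp9c 895 and 614 CPM in oocytes, with no count in hippocampus. The 4 oocyte-restricted Trim genes were led by Trim61 at 3474 and 3172 CPM, against 1 count in hippocampus, while the 4 hippocampus-restricted ones were led by Trim2, a neuronal ubiquitin ligase, at 545, 401, 597 and 542 CPM in hippocampus and no count in oocytes. Single members of channel and receptor families that are mostly neuronal met the limits for oocytes. The sodium channel gene Scn10a had 90.0 and 62.9 CPM, the potassium channel gene Kcnk18 46.5 and 42.8 CPM and the GABA receptor subunit gene Gabrr3 23.7 and 22.3 CPM in oocytes, against at most 0.103 CPM in any hippocampus library. In the 5 other oocyte libraries Scn10a ranged from 7.75 to 93.6 CPM, Gabrr3 from 2.28 to 21.7 CPM and Kcnk18 from 0 to 0.227 CPM, so Kcnk18 was at or near 0 in the oocyte libraries outside the young group.

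Most synaptic genes were far lower in oocytes. Of 20 genes for vesicles and presynaptic release, 19 were lower in oocytes, 14 with a ratio of at least 32, and 11 were hippocampus-restricted, the median log2 fold change being -10.26 (-8.37 at the floor). Their summed level was 156 and 172 CPM in oocytes, against 13559 to 17521 CPM in hippocampus. Vamp2, a vesicle SNARE, had 0.443 and 0.240 CPM in oocytes, against 1203, 1257, 1021 and 1219 CPM in hippocampus. Syt1, the calcium sensor of release, kept a higher level, with 64.7 and 67.8 CPM in oocytes, against 1628, 954, 1644 and 1897 CPM in hippocampus. Rims1, an active zone scaffold, was not called, at 46.5 and 43.9 CPM in oocytes and 113, 61.2, 121 and 85.3 CPM in hippocampus, and is named after its values were seen. Rims1 was called lower with scaling by library totals (log2 fold change -1.07, adjusted p = 0.00531) and without hippocampus replicate 2 (-0.41, adjusted p = 0.0478). All 20 glutamate receptor and postsynaptic genes were lower in oocytes, 16 with a ratio of at least 32 and 12 of them hippocampus-restricted, with a median log2 fold change of -11.16 (-9.13 at the floor). Camk2a had 0.443 and 0.480 CPM in oocytes, against 4828, 4069, 5148 and 4392 CPM in hippocampus. The AMPA receptor subunit genes Gria1 and Gria2 had no count in oocytes. In hippocampus Gria1 had 1083, 581, 1221 and 1099 CPM and Gria2 819.6, 618, 1098 and 816 CPM, with replicate 2 lowest for both. Dlg4, the scaffold PSD-95, also had no count in oocytes, and 972, 1159, 892 and 905 CPM in hippocampus.

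Markers of interneurons and of hippocampal subfields followed. All 15 interneuron genes were lower in oocytes and 10 were hippocampus-restricted, among them Gad1, which makes GABA, with 349, 390.4, 412 and 371 CPM and the neuropeptide gene Cck with 506, 638, 446 and 609.7 CPM in hippocampus, both at 0 in oocytes. Of 17 subfield genes, 16 were lower in oocytes and 11 hippocampus-restricted. Neurod6 and Neurod2, transcription factors of excitatory neurons, had no count in oocytes, against 327, 291, 267 and 329.9 CPM of Neurod6 and 201, 191, 230.2 and 220.4 CPM of Neurod2 in hippocampus. Fibcd1, a marker of the CA1 field, had no count in oocytes and 211, 81.7, 133 and 258 CPM in hippocampus, lowest in replicate 2. Mpped1, also a marker of pyramidal cells, was detected in oocytes as well, at 68.9 and 70.1 CPM, against 259.7, 240.3, 235 and 264 CPM in hippocampus. Zbtb20, a transcription factor of the developing hippocampus, was the member not called, at 5.98 and 6.12 CPM in oocytes and 9.29, 3.29, 11.6 and 4.32 CPM in hippocampus, and is named after its values were seen.

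The list for the neuronal cytoskeleton and neuronal identity also held genes that oocytes carry. Of 20 members, 17 were lower in oocytes, 14 with a ratio of at least 32, and 3 were called higher. Eno2, neuron-specific enolase, had no count in oocytes and 1096, 898, 929.7 and 1081 CPM in hippocampus, and Thy1, a neuronal surface protein, 1 count in oocytes and 714, 636, 625 and 746 CPM in hippocampus. Map2, of dendritic microtubules, had 7.31 and 6.96 CPM in oocytes, against 1488, 1440.3, 1599 and 1372 CPM in hippocampus. The 3 called higher were Tubb3, Uchl1 and Elavl2. Tubb3, the beta tubulin used to mark neurons, had 427 and 577 CPM in oocytes, against 293, 351, 267 and 304 CPM in hippocampus, with no overlap. Elavl2, an RNA-binding protein of the HuB type, had 146 and 153 CPM in oocytes, against 127, 125, 119 and 114 CPM in hippocampus. With scaling by library totals the log2 fold change of Tubb3 was 0.73, that of Elavl2 0.30 and that of Uchl1 -0.077, so the direction of Uchl1 depends on the scaling. The call of Elavl2 was lost with that scaling (adjusted p = 0.0902). The call of Uchl1 was lost with that scaling (adjusted p = 0.757), with the replicate block (0.119) and with all 17 libraries in the fit (0.0737). Without oocyte replicate 1 the log2 fold change of Uchl1 was 0.59. Elavl2 was picked after its values were seen.

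Glial genes were likewise scarce in oocytes. All 15 astrocyte genes were lower in oocytes, 14 with a ratio of at least 32, and 8 were hippocampus-restricted, with a summed level of 19.0 and 19.9 CPM in oocytes, against 9164 to 16947 CPM in hippocampus. Aldoc, a glycolytic enzyme of astrocytes, had 0.222 and 0.240 CPM in oocytes, against 1112, 1932, 840 and 1038 CPM in hippocampus. Glul, glutamine synthetase, had 4.87 and 1.44 CPM in oocytes, against 1136, 2824, 1390.4 and 1164 CPM in hippocampus. Slc1a3, another glutamate transporter of astrocytes, had 0 and 1.08 CPM in oocytes and 642, 642, 639 and 645 CPM in hippocampus. Of 15 oligodendrocyte genes, 14 were lower in oocytes with a ratio of at least 32 and 11 were hippocampus-restricted. Mbp, of the myelin sheath, had 5.54 and 2.64 CPM in oocytes, against 1944, 6948, 2464 and 2509 CPM in hippocampus. Of 14 microglial genes, 13 were lower in oocytes, 11 with a ratio of at least 32, and 9 were hippocampus-restricted, led by Ctss, a lysosomal protease, with 0 and 0.120 CPM in oocytes and 129.8, 181, 79.8 and 71.1 CPM in hippocampus. Replicate 2 of hippocampus was highest for Glul, Mbp and Ctss. Without it the count of genes called was 13989 and the count with a ratio of at least 32 was 5394, and the biological coefficient of variation was 16.4%, against 23.7% with it. The part of tissue composition in these differences was not tested.

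Families of ion channels, receptors and guidance molecules contributed hippocampus-restricted genes, beside 6.59% of all listed genes. Of these families, 3 of 4 AMPA receptor genes (Gria), 7 of 19 GABA receptor genes (Gabr), 7 of 20 semaphorin genes (Sema), 6 of 18 sodium channel genes (Scn), 30 of 98 potassium channel genes (Kcn) and 7 of 26 calcium channel genes (Cacn) met the limits. Other stems set beforehand lay nearer the share of all genes. These included 7 of 70 Pcdh genes (10.0%), 2 of 18 Htr genes (11.1%) and 1 of 9 Slc17 genes (11.1%). Likewise 2 of 16 Chrn genes (12.5%), 4 of 27 Cdh genes (14.8%) and 37 of 369 Zfp genes (10.0%) met the limits. Kcnab2, a potassium channel beta subunit, led its family with 0.222 and 0.360 CPM in oocytes and 1070.1, 971, 884 and 1066 CPM in hippocampus. Of the kinesins (Kif), 4 of 44 were hippocampus-restricted (9.09%), near the 6.59% of all listed genes. Of 40 tested Kif genes, 16 were higher in oocytes and 19 lower, and with a ratio of at least 32 these were 10 and 8. Among the 4 restricted ones were the axonal motors Kif5a and Kif1a. Kif5a had 0.222 and 0.120 CPM in oocytes, against 2285, 2793, 2481 and 1965 CPM in hippocampus. Kif1a had no count in oocytes and 1228, 776, 1387 and 1136 CPM in hippocampus. Of 44 Hox genes, 0 were restricted to either tissue. The 2 that were tested were higher in oocytes with a ratio of at least 32. All Hox genes summed to 62.9 to 77.5 CPM in oocytes, against 0 to 0.526 CPM in hippocampus.

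The limits were then applied to the 11 libraries that had not chosen the genes. Of the 324 oocyte-restricted genes, 204 reached 10 CPM in all 5 other oocyte libraries, 278 stayed at or below 3 counts in all 6 other hippocampus libraries, and 179 met both (55.2%). No oocyte-restricted gene reached 10 CPM in any of the other 6 hippocampus libraries, whereas 3 to 11 hippocampus-restricted genes did in each of the 5 other oocyte libraries. Of the 1613 hippocampus-restricted genes, 1535 reached 10 CPM in all 6 other hippocampus libraries, 1051 stayed at or below 3 counts in all 5 other oocyte libraries, and 1003 met both (62.2%). The library rapamycin oocyte 1 stood apart from the other oocyte libraries, and without it the numbers meeting both were 209 (64.5%) and 1116 (69.2%). In that library H1foo was at 436 CPM and Gdf9 at 256 CPM, each the lowest of the 7 oocyte libraries. In all 4 remaining oocyte libraries, 23 oocyte-restricted genes were under 10 CPM, Kcnk18 and Trim40 among them. Conversely Chl1, a neural adhesion molecule, and Pxdn, a peroxidase of basement membranes, reached 10 CPM in all 4 although they are hippocampus-restricted by the limits. Both were picked after their values were seen. In these 4 libraries Chl1 ranged from 18.1 to 38.7 CPM and Pxdn from 47.3 to 111 CPM.

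**Figure D4:**
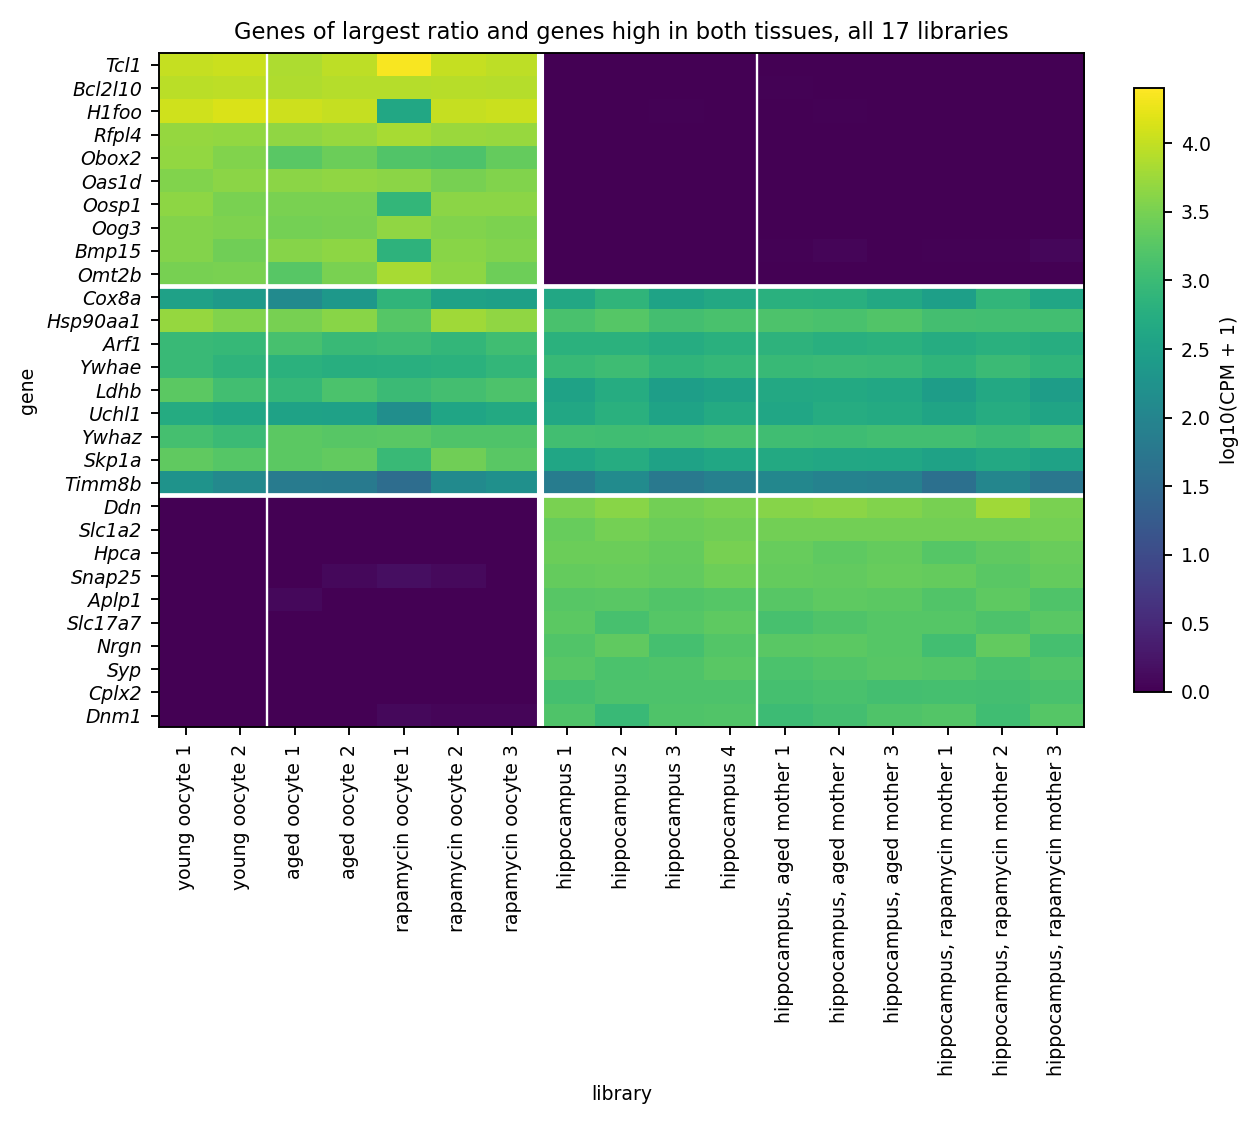
Level as log10(CPM + 1) (colour) of the 10 genes of largest ratio in oocytes (top block), 9 genes high in both tissues (middle) and the 10 of largest ratio in hippocampus (bottom) in all 17 libraries (columns). The first 2 columns and the 4 after the thick line are the libraries that chose the genes, and the top and bottom blocks keep their side in the other columns, with H1foo, Oosp1 and Bmp15 lower in rapamycin oocyte 1.

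Some proteins are encoded by one gene in germ cells and a related gene elsewhere. Pairs of related genes, 21 in all, were compared by the share of the first member in counts per exonic kilobase. Some are of that kind, while those of calcium/calmodulin kinase, the tubulins, the lamins, lactate dehydrogenase and DNA methyltransferase are genes that somatic cells also use. In 10 pairs the first member held over 50% in both oocyte libraries and the second held over 50% in all 4 hippocampus libraries. The importin pair was the most complete, with Kpna7 at 100% and 99.99% of Kpna7 and Kpna1 in oocytes and at 0% in every hippocampus library. H1foo held 99.8% and 99.7% of the linker histone pair in oocytes, against at most 0.0888% in hippocampus. There its partner H1f0 stood at 253 ± 32.8 TPM. Wee2 held 99.8% and 99.7% of the WEE1 kinase pair in oocytes and at most 0.428% in hippocampus. Btg4 held 99.6% and 99.7% of its pair with Btg2 in oocytes, against at most 0.795% in hippocampus, while Btg2 itself had 29.1 ± 3.61 TPM in oocytes and 22.0 ± 2.79 TPM in hippocampus. Camk2g held 99.9% of its pair with Camk2a in both oocyte libraries, against 4.59% to 4.84% in hippocampus. The level of Camk2g was 234 ± 34.8 TPM in oocytes and 124 ± 25.0 TPM in hippocampus. Tuba1c held 100% and 98.8% of its pair with Tuba1a in oocytes, against 0.0470% to 2.66% in hippocampus, with 45.3% of Tuba1a and 53.3% of Tuba1c windows unique. Shares are of the named pair alone, and other members of a family, such as further alpha tubulin genes, were not counted. Pabpc1l, the poly(A)-binding protein of oocytes, held 88.8% and 78.8% of its pair in oocytes and at most 0.416% in hippocampus. Fbxo43, the inhibitor EMI2 that keeps the anaphase-promoting complex off, held 57.8% and 61.6% in oocytes and 2.55% to 4.97% in hippocampus. Npm2 held 50.6% and 51.2% of the nucleoplasmin pair in oocytes, against at most 0.744% in hippocampus. Cpeb1 held 83.8% and 80.9% of its pair with Cpeb4 in oocytes and 42.5% to 47.6% in hippocampus, where it was thus close to Cpeb4. For Npm2 and Cpeb1 the change of leading member was lost when the longest transcript gave the length, and that of Npm2 also on counts not divided by length.

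In 8 of the other pairs the second member led in every library of both tissues. Eif4e1b, an oocyte form of the cap-binding protein, held 30.2% and 33.4% in oocytes and at most 0.391% in hippocampus. Smc1b held 42.1% and 42.9% of its pair with Smc1a in oocytes, against 0.482% to 1.04% in hippocampus. Uchl3 held 23.2% and 26.5% in oocytes and 2.91% to 3.47% in hippocampus, while its partner Uchl1 led in both. Meiotic partners of cohesin did not lead in oocytes, since Rec8 held 0% beside Rad21, and Stag3 0.750% and 3.27% beside Stag2 in oocytes and 0.172% to 2.11% in hippocampus. Beta tubulin ran the other way, with Tubb4b at 13.0% and 8.43% of its pair with Tubb3 in oocytes, against 43.3% to 45.6% in hippocampus (50.9% on average by longest transcript). Aurkc held 97.9% and 99.3% of the aurora pair with Aurkb in oocytes, but they averaged 0.250 TPM (Aurkc) and 0.189 TPM (Aurkb) in hippocampus, so the share there rests on few counts. Of the Aurkc windows 55.4% were unique. Ldhb led over Ldha in both tissues, with 99.9% and 99.97% in oocytes, against 66.9% to 74.9% in hippocampus. Dnmt1 also led over Dnmt3a in both, but on counts not divided by length Dnmt3a led in hippocampus.

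**Figure D5:**
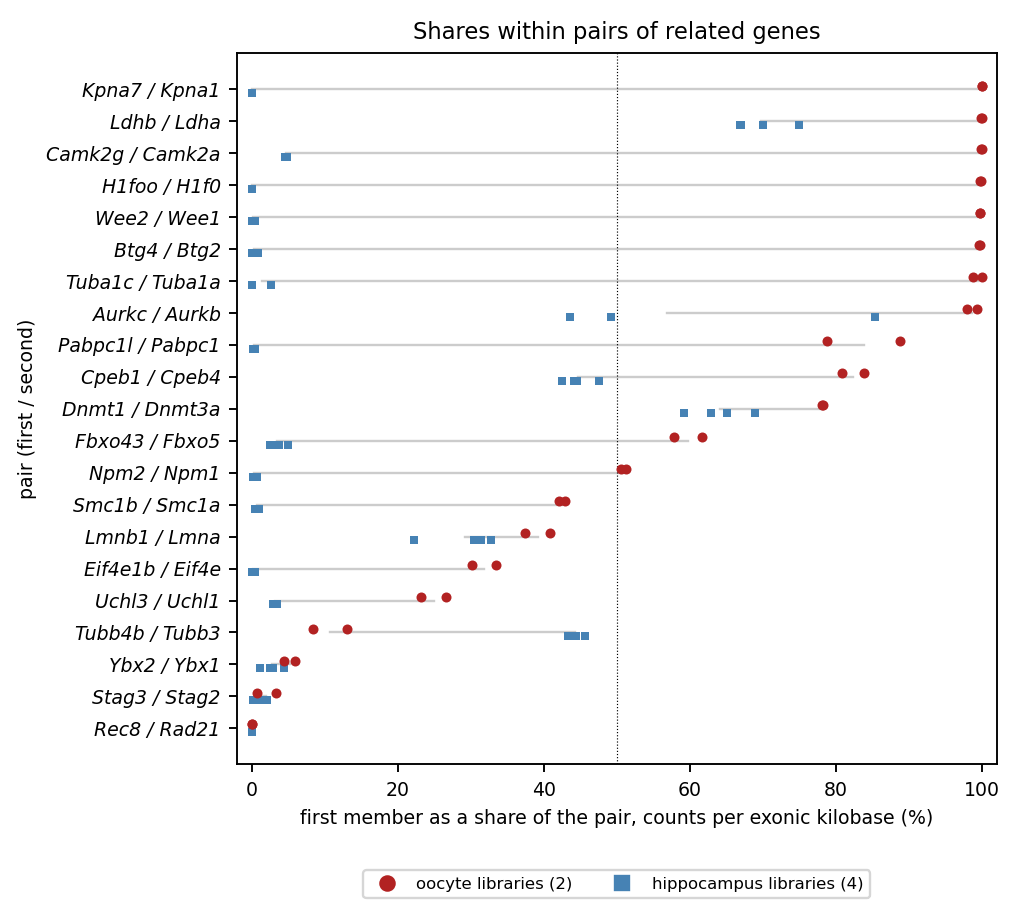
Share of the first gene of each of 21 pairs (x axis, percent of counts per exonic kilobase of the pair) in the 2 oocyte libraries (red circles) and the 4 hippocampus libraries (blue squares), joined between group means by a grey line and ordered by the oocyte mean. Kpna7, Camk2g, H1foo, Wee2, Btg4 and Tuba1c lie near 100% in oocytes and below 5% in hippocampus, and Rec8 and Stag3 lie near 0% in both.

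Markers of cells that could accompany either tissue were read for the whole list. Over all tested genes, 33.0% were called higher and 53.5% lower in oocytes, so counts of calls alone say little about accompanying cells. Of 18 cumulus and granulosa genes, 15 were tested, with 4 called higher in oocytes, 7 lower and 4 not called, and their summed level was 1176 and 1407 CPM in oocytes, against 426 to 622 CPM in hippocampus. Most of the oocyte sum was Serpine2, a protease inhibitor, at 1301 and 1085 CPM in oocytes, with Cyp19a1, the aromatase of granulosa cells, at 81.8 and 78.5 CPM. The defining genes Amh and Foxl2 had no count in oocytes, Fshr 2 counts in 1 oocyte library and Has2 2 counts in the other. Choroid plexus genes summed to 118 and 135 CPM in oocytes, most of it from Prlr (100.2 and 104 CPM), and to 36.3 to 92.5 CPM in hippocampus, where Ttr, the transthyretin of that tissue, was at 2.28, 58.3, 0.310 and 2.21 CPM, high in replicate 2. Of 11 blood genes, 2 were tested and both were lower in oocytes, with a summed level of 0 to 0.443 CPM in oocytes, against 4.99 to 7.77 CPM in hippocampus. The 4 haemoglobin genes among them, Hbb-bs, Hbb-bt, Hba-a1 and Hba-a2, were listed at 0 in all 6 libraries. Since 41.3% of Hbb-bs and 51.6% of Hba-a1 windows were unique and the treatment of shared reads is not given in the sources, these zeros are no measure of blood. Of 10 genes for thalamus and habenula, 5 were higher and 5 lower in oocytes, with Lef1, a factor of WNT signalling, at 318 and 316 CPM in oocytes, against 3.04, 1.70, 5.94 and 4.37 CPM in hippocampus. Of 14 vessel genes, 9 were lower in oocytes, 4 were not called and Pecam1 was higher, with 98.4 and 105 CPM in oocytes, against 21.0, 6.51, 16.9 and 15.6 CPM in hippocampus. The part of accompanying cells in these values was not tested.

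The restricted genes were then read for what the annotation says of them. The limits did not use the annotation, but they are set on counts not divided by length. Exonic length is therefore not independent of them. All listed genes, given for reference, also include genes undetected in both tissues, which could not meet the limits. Median genomic span was 14823 bases for 312 oocyte-restricted genes with a position, 19769 bases for 1607 hippocampus-restricted genes and 15573 bases for all 24064 listed genes with one. Median exonic length was 2163 bases in the oocyte set, against 4482 bases in the hippocampus set and 3243 bases over all. A span over 100 kb was found in 5.45% of the oocyte set, 14.2% of the hippocampus set and 10.6% of all genes. Protein-coding genes made up 85.9%, 97.8% and 85.3% in the same order, and 27.5% of oocyte-restricted symbols, against 4.34% of hippocampus-restricted ones, were provisional (clone or predicted-gene names). Chromosome 9 held 10.6% of the oocyte set, 5.60% of the hippocampus set and 5.56% of all genes, while the X chromosome held 3.53%, 5.23% and 4.38%. Genes in clusters are not independent of each other, and no test is attached to these shares. Xist, the noncoding RNA of the inactive X chromosome, was hippocampus-restricted, with 0.222 and 0 CPM in oocytes, against 543, 370.4, 1002 and 749 CPM in hippocampus, and is named after its values were seen.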

How the data were processed

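The files are raw counts of reads per gene, 1 file per library, as the authors deposited them, from 150-bp paired-end reads per the labels' protocols. The submitters' processing notes name STAR, HTSeq and mm10. Versions, annotation and strand setting are not given in the sources, so reads of overlapping or antisense genes cannot be told apart. Of 24491 symbols, 24064 (98.3%) matched 1 gene in GENCODE M21 on GRCm38, the assembly of mm10, which gave lengths and positions. Rows that name no gene (5 per file) stayed out of totals and tests. As a percent of all counts of a file, with the rows that name no gene included, reads outside genes came to 7.72% and 9.01% in oocytes. In hippocampus they came to 13.0% to 15.1%. On the same scale, reads without a unique position came to 13.5% in both oocyte libraries, against 5.09% to 7.22% in hippocampus.

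The 6 libraries were fitted together with edgeR 4.0.16 in R 4.3.3 (filterByExpr, TMM scaling, quasi-likelihood F-test, Benjamini-Hochberg adjustment over all 15869 genes tested, threshold 0.05), and the code was tested on simulated data. TMM factors were 0.724 and 0.658 for oocytes and 1.18 to 1.25 for hippocampus. CPM and TPM use library totals without them, and TPM uses the union of exons. Where a tissue had no count, the ratio given for a named gene is a lower bound against 3 counts over its libraries, and where it had 1 to 3 counts the 95% counting interval is given. Counts of genes with a ratio of at least 32 use the fitted value instead. Reads are not independent molecules, so such limits cover counting error only. No 2 libraries of a tissue differed by as little as counting noise (chi-square of 12.3 or more per degree of freedom).

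Members, lists, pairs and families were chosen with earlier results of these data known. The text names the 10 genes of highest TPM in each tissue, the 10 of largest fold change each way, the 10 high in both, up to 6 members of each list, leading restricted members of families, and the pairs. A few genes that this rule picks are not reported here. A gene outside this rule is marked as picked or named after its values were seen, and genes given only as cluster members, exceptions or absent markers also stand outside it. Alternatives were other scalings, other filters, DESeq2 1.42.0, a replicate block, all 17 libraries in the fit, counts thinned to the smallest total, and each library left out. Leaving out rapamycin oocyte 1 when sets were looked up elsewhere was added after seeing the data. Promoters are from RefSeq (GRCm38.p6).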

Additional observations from a re-analysis of the deposited data

Results flagged for a closer look

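Among the 4 hippocampus libraries, 170 genes named in the text were read for a library whose gap to its nearest neighbour took up more of the whole range than Dixon's 95% limit for 4 values, which chance gives in about 1 in 20 groups. This held for 9 genes, which for 170 genes is near that rate, so no single flag is a result by itself. In 8 of the 9 genes the library that stood apart was replicate 2. Replicate 2 was highest for Mbp at 6948 CPM (next library 2509 CPM), Apoe at 4893 CPM (next 2082 CPM), Glul at 2824 CPM (next 1390.4 CPM) and Ttr at 58.3 CPM (next 2.28 CPM). It was also highest for Zbed3 at 13.9 CPM (next 11.5 CPM) and Pttg1 at 1.16 CPM (next 0.411 CPM), and lowest for Dnm1 at 940.2 CPM (next 1559 CPM) and Kpna1 at 109 CPM (next 156 CPM). Cplx2 was lowest in replicate 1 at 1251 CPM (next 1462 CPM). Of the 9 genes, 8 were called between oocytes and hippocampus, and Ttr was not, though it was called lower in oocytes without replicate 2 (adjusted p = 0.0219). Ttr was also called lower in settings that keep replicate 2. These were without replicate 3 (adjusted p = 0.0316), without replicate 4 (0.0434), with all 17 libraries in the fit (0.0429) and with the replicate block (2.1e-13).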

How the results depend on the processing

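The number of genes called was 13729 and ranged from 10314 to 14373 under other scalings, filters and tests, and from 12449 to 13989 when one library was left out. The number with a ratio of at least 32 was 5425, and it was 3473 with a filter of 10 CPM, which tests fewer genes, and 5152 to 5394 without one library. The share of calls that were higher in oocytes was 38.2%, 30.6% with library totals only and 41.1% with DESeq2. Oocyte-restricted genes numbered 518 at 3 CPM, 203 at 30 CPM and 183 at 0 counts, and 334 to 350 without one library. Hippocampus-restricted genes numbered 2436, 886 and 843 under the same limits, and 1629 to 2156 without one library. With counts thinned to the smallest total, 468 genes were oocyte-restricted, against 324 at full depth, and 1819 were hippocampus-restricted, against 1613. The 100 most counted genes held 45.9% (oocytes) and 20.1% (hippocampus) by TPM, and the 10 most counted 11.6% and 3.55%; without one library the shares were 32.6% to 33.0% and 15.9% to 16.7%. Directions that changed belong to genes with small differences. The log2 fold change of Cdc25b (-0.09) was 0.17 by relative log expression and in DESeq2, 0.047 by upper quartile, 0.083 after thinning, -0.91 with library totals (called lower, adjusted p = 0.0337), and -0.54 to 0.21 when one library was left out. Rims1 (-0.26) was 0.024 by relative log expression and 0.025 in DESeq2, and it was called lower with library totals (-1.07, adjusted p = 0.00531) and without hippocampus replicate 2 (-0.41, adjusted p = 0.0478). With library totals Uchl1 (0.71) was -0.077 and Zbtb20 (0.59) -0.23, while Zbtb20 was called higher after thinning (0.89, adjusted p = 0.0401). Stag3 (1.05) was -0.85 to 1.67 when one library was left out; the cause was not tested.

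With the replicate number as a block, 12447 genes were called, 5201 with a ratio of at least 32, and Cdc25b was 0.26. Samples with the same number did not deviate together (correlations of -0.03 and -0.09 for the 2 shared numbers), so the numbers were not taken as pairs. Depth limits absence in oocytes, where 3 counts are 0.665 and 0.360 CPM per library, against 0.154 to 0.183 CPM in hippocampus.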

Other observations

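Messages of the translation and respiration machinery, families counted by symbol stem after the values were seen, were largely lower in oocytes. Of 47 tested Rpl genes, which encode proteins of the large ribosomal subunit, 42 were lower in oocytes, 4 were higher and 1 was not called, with a median log2 fold change of -3.56 beside -1.37 for all tested genes, of which 33.0% were higher and 53.5% lower. Rpl genes held 0.0924% and 0.100% of counts in oocytes, against 0.765% to 1.64% in hippocampus. Of 32 tested Rps genes, of the small subunit, 28 were lower in oocytes and 2 were higher, with a median log2 fold change of -3.88. Of 44 tested Nduf genes, most of them for respiratory complex I, 35 were lower in oocytes and 5 were higher, with a median of -2.99. Many ribosomal protein genes have processed copies in the genome, so their counts are uncertain.

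Genes of protein degradation were spread in both directions, as were all tested genes, of which 33.0% were higher and 53.5% lower in oocytes. Of 49 tested Psm genes of the proteasome, 18 were higher in oocytes and 21 were lower, with a median log2 fold change of -0.54, and they held 0.464% and 0.520% of counts in oocytes, against 0.352% to 0.502% in hippocampus. Of 34 tested Ube2 genes, which encode ubiquitin-conjugating enzymes, 13 were higher and 16 lower in oocytes, and of 10 Anapc genes of the anaphase-promoting complex 7 were higher and 3 lower.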
